A study of Drosophila melanogaster with 6 samples.

Results

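The transcripts described here are those of 10 genes of the male accessory gland: Acp26Aa, Acp26Ab, Acp53C14a, Acp53C14b, Acp53C14c, Acp53Ea, Acp36DE, Acp29AB, Acp62F and Acp63F. They were chosen by symbol from the array's annotation, current and older symbols included, and each gene was read by 1 probe set, a group of oligonucleotides that interrogates a transcript, so that 10 of the 18769 probe sets tested, or 10 of 11982 genes with a probe set of their own, are members. Whole w1118 virgin males aged 5 days were fed for 24 h either a diet holding 0.6% (w/v) methamphetamine (METH) or the control diet without it, and the labels call both diets blue. RNA of 20 flies was pooled for each sample, and there were 3 samples per diet, which the labels describe as biological replicates. Each sample was hybridized to 1 Affymetrix array, so precision is limited by their number, and in RNA from whole flies fewer gland cells cannot be told apart from less transcript per cell.

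The accessory glands are paired secretory organs that open into the ejaculatory duct. Their main cells, and a smaller population of secondary cells, make seminal fluid proteins that are passed to the female with the sperm, where they raise egg laying, lower receptivity to further mating and support the storage of sperm. Many of these genes are transcribed almost only in the gland, and their proteins are replenished after mating, so a virgin male carries a filled gland. Acp26Aa encodes ovulin, a prohormone-like protein that stimulates ovulation and is cleaved in the mated female. Acp36DE and Acp29AB, a lectin, act in sperm storage and sperm competition, and Acp62F is a protease inhibitor. The Acp53 genes form a cluster of related genes.

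Signals are given as a percentage of the actin reference, the signal that AFFX-Dros-ACTIN_M_r gave on the same array, which is the scaling that the study's methods name. This reference was itself dimmer on METH arrays, with deposited signals of 831, 868 and 700.0 on METH arrays, against 1218, 922 and 984 on control arrays. Differences are log2 fold changes, METH minus control, and across all probe sets their median was 0.24 with this reference. A gene that followed the median probe set therefore has a log2 fold change of 0.24, and -0.13 on the signals as deposited. P values are from limma with Benjamini-Hochberg adjustment over all 18769 probe sets, and a change was called at an adjusted p under 0.05.

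Of the 10 genes 2 fell in METH-treated flies and none rose, Acp26Aa and Acp53C14c. Among all probe sets 0.416% were called lower, 0.842% higher and 1.26% in either direction. The 10 genes were chosen with earlier results of these data known, so the shares given here are no test of the list. At an unadjusted p under 0.05 from limma 4 of the 10 were lower, with Acp36DE and Acp29AB added, and none was higher, against 2.12% of all probe sets lower and 9.38% higher. The median log2 fold change of the 10 genes was -0.29, beside 0.24 over all probe sets. A single gene of the 10, Acp26Ab, had a positive value, which became negative on the signals as deposited, with median or 75th percentile centring and after quantile normalization.

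Both calls rest on how limma estimates the spread. They were kept under each of 5 other scalings and with each of the 6 arrays left out. They were lost when the spread was not allowed to follow the signal level (adjusted p of 0.251 for Acp26Aa and 0.233 for Acp53C14c), and neither the methods' t-test, at either of its cutoffs or adjusted, nor SAM (significance analysis of microarrays) called any of the 10 genes.

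**Figure D1:**
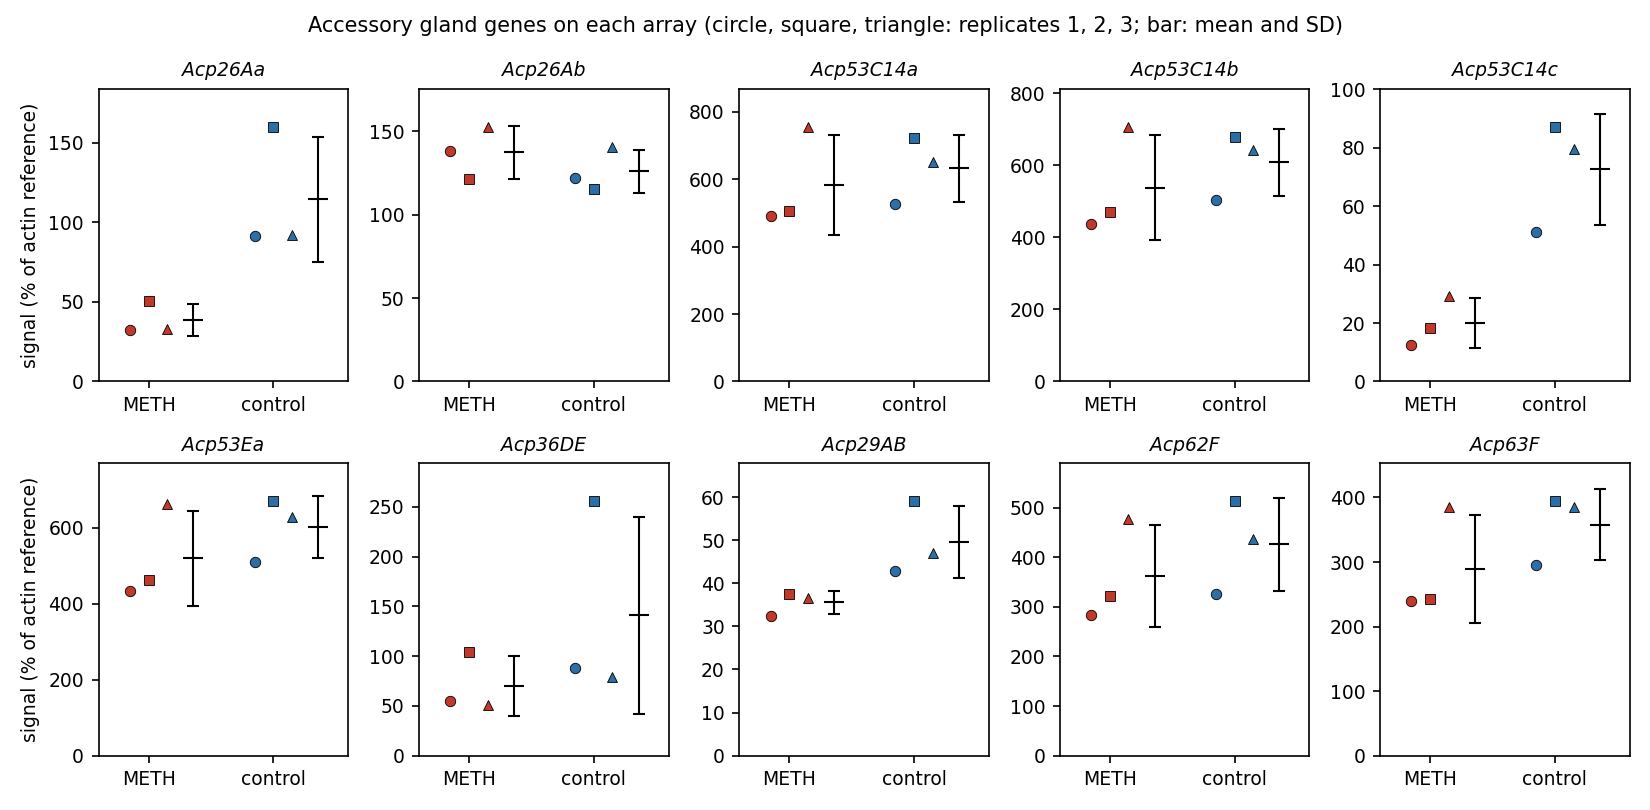
Signal of each gene on each array as a percentage of the actin reference, on linear axes that start at 0, with METH arrays in red at the left and control arrays in blue at the right, and the mean and SD of 3 arrays as a bar. The METH values of Acp26Aa, Acp53C14c and Acp29AB lie below all control values, and those of the other 7 genes overlap the control values.

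Acp26Aa and Acp26Ab are direct neighbours on chromosome arm 2L, and Acp26Ab encodes a small secreted peptide. Acp26Aa stood at 32.5, 50.4 and 32.7% of the actin reference on METH arrays, against 91.6, 160 and 92.0% on control arrays. The highest METH value was thus well below the lowest control value. Mean levels were 38.5 ± 10.3% in METH-treated flies and 114 ± 39.2% in controls (SD, n = 3 each), a log2 fold change of -1.55 (standard error 0.24, limma adjusted p = 0.00303), or 2.93-fold lower. Relative to the median probe set its difference was -1.79, and its log2 fold change ran from -1.93 with the signals as deposited to -1.22 when arrays were scaled to other accessory gland genes.

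Acp26Ab showed no such difference. It stood at 138, 121 and 153% of the actin reference on METH arrays, against 122, 116 and 141% on control arrays, and the values of the diets were interleaved. Means were 137 ± 15.7% in METH-treated flies and 126 ± 13.0% in controls (SD, n = 3 each), and the log2 fold change was 0.12 (standard error 0.17, limma adjusted p = 0.738; 95% interval -0.24 to 0.48). With this reference the interval excludes a fall of the size seen for Acp26Aa.

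A ratio of 2 genes on the same array does not depend on the scaling of that array. The 7 ratios within the 26A pair and the 53C cluster were compared after their values had been seen. The log2 ratio of Acp26Aa over Acp26Ab was -2.09, -1.27 and -2.22 on METH arrays, against -0.42, 0.47 and -0.61 on control arrays. The ratio was 3.19-fold lower in METH-treated flies, and no METH array reached a control array (exact two-sided permutation test, p = 0.1, the smallest that 3 arrays against 3 allow; 0.117 adjusted over 7 ratios). On these arrays the neighbours thus differed unequally between the diets, although the ratio did not pass the test.

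The Acp53 genes lie side by side on arm 2R in the order Acp53C14a, Acp53C14b, Acp53Ea and Acp53C14c. Acp53C14c, at the far end of the cluster, stood at 12.6, 18.3 and 29.3% of the actin reference on METH arrays, against 51.2, 87.1 and 79.7% on control arrays. All METH values were below all control values. Its mean was 20.1 ± 8.46% in METH-treated flies and 72.7 ± 18.9% in controls (SD, n = 3 each), a log2 fold change of -1.91 (standard error 0.28, limma adjusted p = 0.0020), or 3.75-fold lower. Relative to the median probe set its difference was -2.15. On METH arrays its signal was at the 59.0, 63.2 and 70.2 percentile of the array, against the 84.7, 88.6 and 88.5 percentile on control arrays.

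The other genes of the cluster did not pass the threshold with the actin reference. Acp53C14a stood at 491, 505 and 755% of the actin reference on METH arrays, against 525, 722 and 651% on control arrays (log2 fold change -0.13, standard error 0.24, limma adjusted p = 0.804). Acp53C14b stood at 438, 470 and 706% on METH arrays, against 503, 678 and 642% on control arrays (log2 fold change -0.20, limma adjusted p = 0.702). For these genes replicate 3 of the METH diet lay above every control array, and replicates 1 and 2 lay below all of them.

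Acp53Ea likewise overlapped between the diets, with 433, 463 and 664% of the actin reference on METH arrays, against 510, 669 and 627% on control arrays. Its log2 fold change was -0.23 (standard error 0.23, limma adjusted p = 0.644; 95% interval -0.73 to 0.27). Of these 3 genes all were called lower on the signals as deposited and after quantile normalization, and their log2 fold changes turned positive (0.10 to 0.20), without passing, when the arrays were scaled to other accessory gland genes.

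Within the cluster the ratios of Acp53C14c over its neighbours were lower on every METH array than on any control array. The log2 ratio of Acp53C14c over Acp53C14a was -5.28, -4.79 and -4.69 on METH arrays, against -3.36, -3.05 and -3.03 on control arrays, a 3.41-fold lower ratio in METH-treated flies. Over Acp53C14b the ratio was 3.26-fold lower and over Acp53Ea 3.19-fold lower (exact two-sided permutation test, p = 0.1 for each, 0.117 adjusted over 7 ratios). The ratios among the 3 other genes differed between diets by 0.10 or less on the log2 scale. Of these small differences those of Acp53C14a over Acp53C14b and over Acp53Ea also had all METH arrays above all control arrays and the same p (0.1, 0.117 adjusted), so the ratios of Acp53C14c differed from them in size and not in the test. On control arrays Acp53C14c lay at 5.93 to 7.55% of the array's highest signal and the 3 other genes at 57.3 to 61.8%. The part of signal compression near the top of the range in these ratios was not tested.

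**Figure D2:**
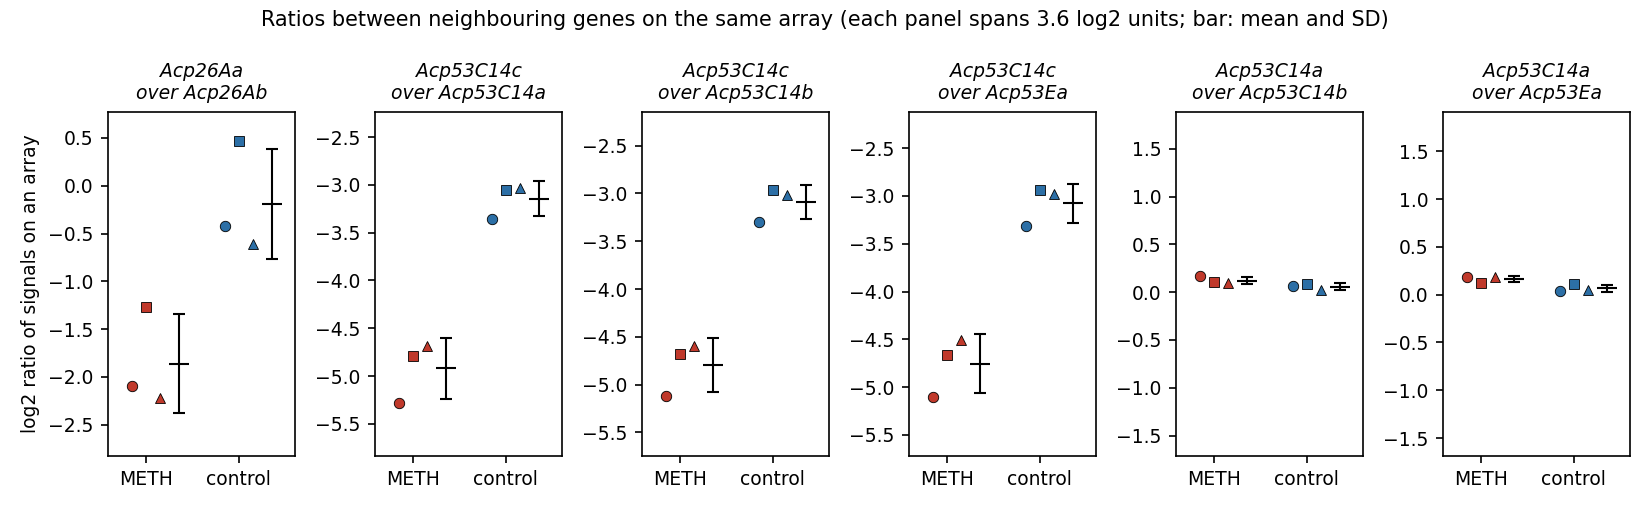
Log2 ratio of the signals of 2 neighbouring genes on the same array for 6 of the 7 ratios compared, with METH arrays in red at the left and control arrays in blue at the right, and the mean and SD of 3 arrays as a bar; all panels span the same range of log2 units. The ratios of Acp26Aa over Acp26Ab and of Acp53C14c over its neighbours are at least 3.19-fold lower on METH arrays, and the ratios of Acp53C14a over Acp53C14b and Acp53Ea differ by 0.06 and 0.10 on the log2 scale.

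Several of these transcripts lay in the upper part of the range of signals on an array. The highest signal on an array was 10246 to 10677 on METH arrays and 10375 to 10770 on control arrays, and 219 to 224 probe sets on METH arrays and 235 to 263 on control arrays exceeded 50% of it. Acp53C14a was at 38.8, 42.8 and 49.5% of the highest signal on METH arrays, against 60.8, 61.8 and 61.8% on control arrays. Acp53C14b and Acp53Ea lay between 34.2 and 46.3% on METH arrays, against 57.3 to 60.9% on control arrays.

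On the deposited scale these 3 genes thus separated the diets, with control arrays grouped within a narrow span. Acp62F was at 22.4, 27.4 and 31.3% of the highest signal on METH arrays, against 37.8, 43.9 and 41.5% on control arrays. Acp63F was at 18.9, 20.5 and 25.3% on METH arrays, against 34.1, 33.7 and 36.5% on control arrays. The remaining 5 genes did not exceed 10.9% on METH arrays or 21.9% on control arrays.

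Positions on the array gave a similar picture without a reference transcript. Acp53C14a ranked 316, 292 and 227 from the top on METH arrays, against 171, 153 and 149 on control arrays. For 8 of the 10 genes, all but Acp26Ab and Acp36DE, the rank on every METH array was below that on every control array, as for 7.48% of all probe sets. On the signals as deposited it was again 8 of 10, beside 13.6% of all probe sets, whereas 3 of 10 separated with the actin reference, beside 2.58%, and 3 of 10 with median centring, beside 5.7%.

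Among the 215 probe sets brighter than Acp53C14a none was called in either direction by limma, and their log2 fold changes lay between -0.55 and 0.97, the median being 0.34. Of those 215, 3 had a lower value than Acp53C14a, as had 18.8% of all probe sets. Of the 529 probe sets brighter than Acp63F none was called lower and 9 higher, with a median of 0.32. The part of signal compression near the top of the range in the small differences of the bright genes was not tested.

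**Figure D3:**
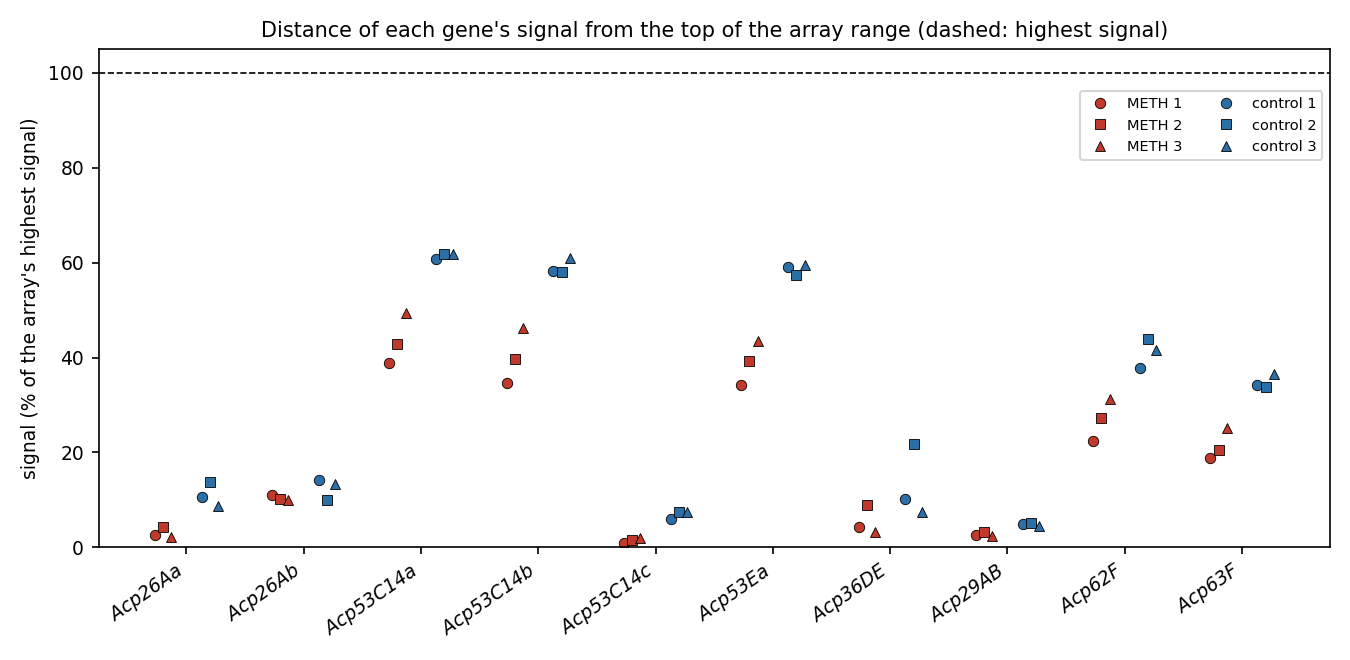
Signal of each gene as a percentage of the highest signal on the same array, on a linear axis from 0, with METH arrays in red at the left and control arrays in blue at the right of each gene, and the highest signal as a dashed line. Acp53C14a, Acp53C14b, Acp53Ea, Acp62F and Acp63F lie between 18.9 and 49.5% on METH arrays and between 33.7 and 61.8% on control arrays.

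Acp62F, the protease inhibitor, and Acp63F are encoded on arm 3L and are not neighbours of each other. Acp62F stood at 284, 323 and 478% of the actin reference on METH arrays, against 327, 513 and 438% on control arrays (log2 fold change -0.25, standard error 0.24, limma adjusted p = 0.633). Acp63F stood at 239, 242 and 385% on METH arrays, against 295, 394 and 385% on control arrays (log2 fold change -0.33, standard error 0.23, limma adjusted p = 0.504). With this reference the diets overlapped for both genes, as for the bright Acp53 genes. Both were called lower on the signals as deposited, Acp63F after quantile normalization too.

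Acp36DE stood at 54.8, 104 and 50.9% of the actin reference on METH arrays, against 87.9, 256 and 79.5% on control arrays. Replicate 2 was the highest of each diet, and the METH array of replicate 2 lay above 2 of the 3 control arrays. Acp36DE averaged 70.0 ± 29.8% in METH-treated flies and 141 ± 99.3% in controls (SD, n = 3 each), and the log2 fold change was -0.87 (standard error 0.38, limma adjusted p = 0.424; 95% interval -1.69 to -0.06). Without control replicate 2 the log2 fold change was -0.34.

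Acp29AB stood at 32.4, 37.6 and 36.6% of the actin reference on METH arrays, against 42.9, 59.0 and 47.0% on control arrays. The diets did not overlap, and means were 35.5 ± 2.76% in METH-treated flies and 49.6 ± 8.35% in controls (SD, n = 3 each). The log2 fold change was -0.47 (standard error 0.17, limma adjusted p = 0.340), and -0.71 relative to the median probe set. Acp29AB was called lower with median centring (adjusted p = 0.0168), 75th percentile centring, quantile normalization and the signals as deposited. With the actin reference it was called only when the replicate number entered as a block (adjusted p = 0.0255).

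**Figure D4:**
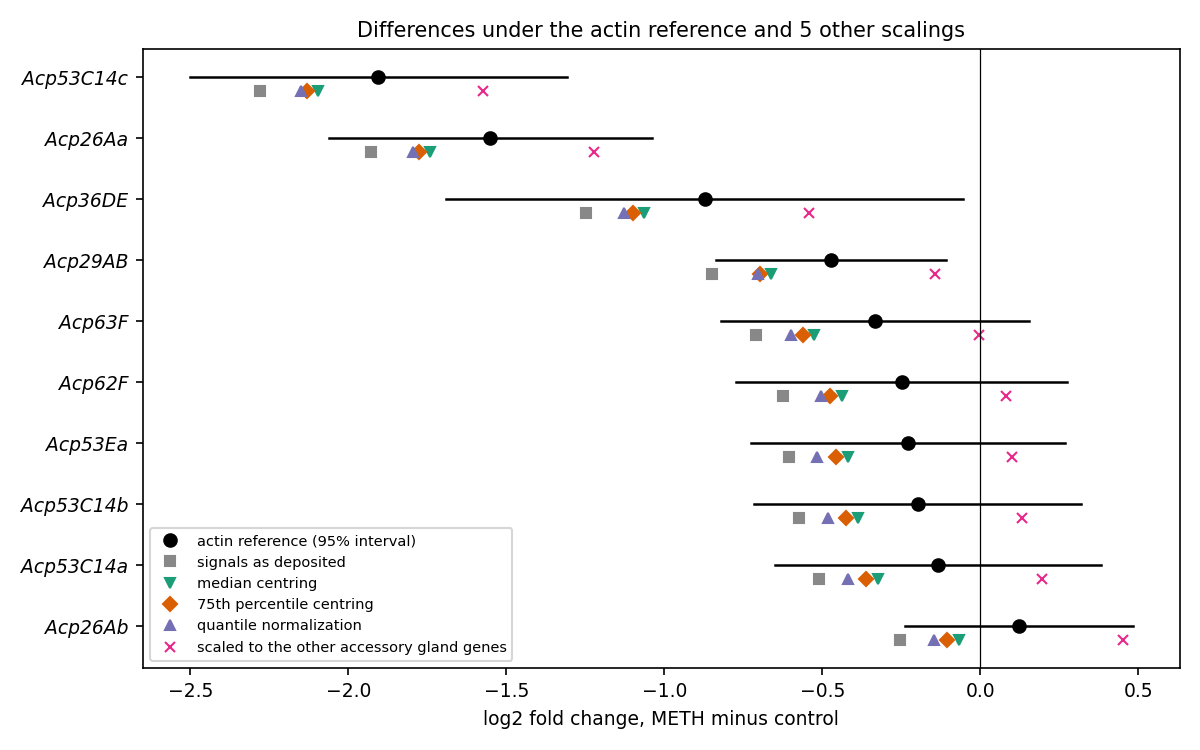
Log2 fold change, METH minus control, of each gene with the actin reference (black points with 95% intervals) and under 5 other scalings of the arrays (coloured marks without intervals), with a line at 0. Acp53C14c and Acp26Aa lie below -1.2 under every scaling, and the values of Acp26Ab lie on both sides of 0, from -0.25 to 0.45.

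Across the arrays the genes fell into sets that moved together, described here on median-centred signals of 6 arrays that share the same scaling. Centring takes the same array median from every gene. On control arrays Acp53Ea had deposited signals of 6213, 6174 and 6173, while the array medians were 70.3, 65.0 and 61.0. Its centred deviations there therefore largely follow the median, and the part of the centring in the correlations was not tested. The 10 pairs among Acp53C14a, Acp53C14b, Acp53Ea, Acp62F and Acp63F had Pearson correlations of 0.96 to 0.998 over the 6 arrays, and of 0.93 to 0.999 in the deviations from the diet means. Acp53C14c deviated with these 5 genes too, with correlations of 0.85 to 0.95 within the diets, and of 0.81 to 0.90 over the 6 arrays. Acp26Aa and Acp36DE also deviated together within the diets (correlation 0.98). Acp26Ab ran against both, with correlations of -0.99 with Acp26Aa and -0.97 with Acp36DE in these deviations. These were the lowest among all pairs of the 10 genes, and rest on 3 arrays per diet. As deposited, Acp26Aa and Acp26Ab were both lower on replicate 3 than on replicate 1 of each diet. Acp26Aa went from 270 to 229 on METH arrays and from 1115 to 905 on control arrays. Acp26Ab went from 1151 to 1068 and from 1489 to 1383. Correlations under other scalings were not computed.

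Among 4144 other probe sets of 1 gene with a mean signal above the 75th percentile, the 5 with the pattern most like the mean of the members were CG7675 (Pearson correlation 0.997 over 6 arrays), CG8952 (0.995), CG17633 (0.994), CG31233 (0.994) and Gal (0.993). CG17633 was called lower in METH-treated flies (log2 fold change -1.22, limma adjusted p = 0.0105). The other 4 were not called, with log2 fold changes of -0.57 to -0.37. These fold changes are with the actin reference, whereas the correlations were taken on median-centred signals. Over 6 arrays the correlations include the difference between the diets.

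Other genes of the gland and of seminal fluid were counted from a list of 48, of which 22 were measured by a probe set of 1 gene. Of these 2 fell, Acp76A and Semp1, and none rose, and at an unadjusted p under 0.05 from limma 8 were lower and none higher. Their log2 fold changes lay between -3.02 and 0.35, the median being -0.19, beside 0.24 over all probe sets and -0.29 over the 10 genes above. Centred on the median the values were -0.38 for the 22 genes and -0.48 for the 10. Both genes that fell had a mean level over the 6 arrays below that of the dimmest of the 10 genes. This level includes the METH arrays, so a fall lowers it. Acp76A had deposited signals of 467, 476 and 278 on control arrays, against 25.2, 46.4 and 45.5 on METH arrays. Of the 22, 15 were at least as bright as the dimmest of the 10, and among these none was called lower. Their median was -0.02, beside 0.27 over all probe sets as bright, but the choice of these 15 depends in part on the outcome.

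Semp1 encodes a seminal metalloprotease that is needed for the cleavage of Acp26Aa and Acp36DE, and Sems encodes seminase, a protease upstream of it. Semp1 stood at 1.52, 1.33 and 3.34% of the actin reference on METH arrays, against 13.3, 12.0 and 9.31% on control arrays (log2 fold change -2.59, standard error 0.36, limma adjusted p = 0.00128). All METH arrays lay below all control arrays. Deposited signals of 11.5 to 23.4 on METH arrays were dim, so the size of this fall is uncertain.

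Sems stood at 37.7, 60.3 and 88.6% on METH arrays, against 68.8, 107 and 106% on control arrays (log2 fold change -0.65, standard error 0.27, limma adjusted p = 0.422). Acp76A, a serpin gene of the gland, stood at 3.03, 5.35 and 6.50% on METH arrays, against 38.4, 51.6 and 28.2% on control arrays (log2 fold change -3.02, standard error 0.29, limma adjusted p = 6.73e-05). Its diets were far apart, those of Sems overlapped. On METH arrays the deposited signals of Acp76A, 25.2 to 46.4, lay below the array medians of 51.7 to 66.1. The size of its fall is therefore uncertain too. Neither Semp1 nor Acp76A passed when the spread did not follow the signal level (adjusted p of 0.118 and 0.072).

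Further genes of the gland that act on the sex peptide pathway in the mated female, aqrs, antr, CG9997, lectin-46Ca, lectin-46Cb and CG17575, had log2 fold changes of -0.61 to 0.35 and none was called. The nearest to the threshold was aqrs, with an adjusted p of 0.254 and a log2 fold change of -0.61 (standard error 0.19). Of the transcription factor genes prd, which is needed for the gland to form, Hr39 and dve, the measured 3 of 4 listed, none was called by limma, and none at an unadjusted p under 0.05, with log2 fold changes of -0.11 to 0.30.

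**Figure D5:**
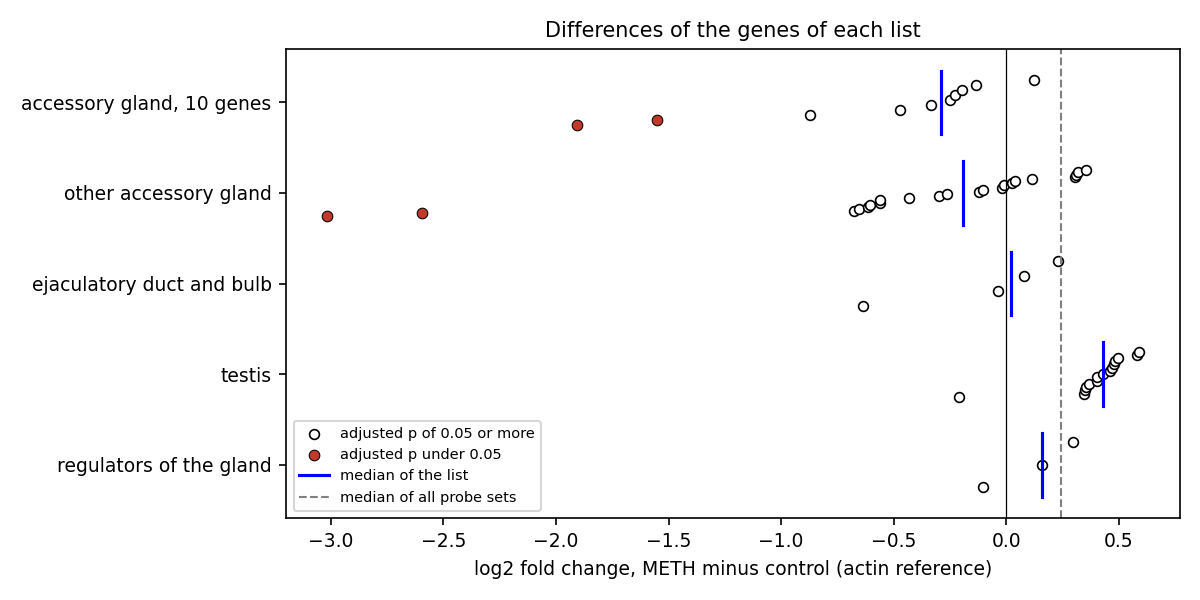
Log2 fold change, METH minus control, with the actin reference for each measured gene of the lists, 1 point per gene, filled where the limma adjusted p was under 0.05, with the median of a list as a blue line and the median of all probe sets as a dashed line. The medians of both accessory gland lists (-0.29 and -0.19) lie below that of all probe sets (0.24), and the testis list (0.43) lies above it.

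Neighbouring reproductive tissues were followed with the same measure. Summed levels of the 4 measured of 5 listed genes of the ejaculatory duct and bulb were 2133 to 3042% of the actin reference on METH arrays, against 1921 to 2659% on control arrays, none of the 4 was called, and 1, Gld, was lower at an unadjusted p under 0.05. Summed levels of 15 measured of 16 testis markers were 5308 to 6852% on METH arrays, against 3567 to 5304% on control arrays. The lowest METH sum thus nearly met the highest control sum. None of the 15 was called, and 5 were higher at an unadjusted p under 0.05 from limma, as were 9.38% of all probe sets. Their median log2 fold change was 0.43, beside 0.24 over all probe sets. Sums of the 10 accessory gland genes were 2156 to 3290% on METH arrays and 2556 to 3653% on control arrays, so with this reference they overlapped.

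On the deposited scale the sums of the 10 genes did not overlap, at 17921 to 23027 on METH arrays and 31124 to 33696 on control arrays. The same held for the 22 other genes of the gland, at 27552 to 32696 on METH arrays and 40084 to 41439 on control arrays, and for the ejaculatory duct and bulb, at 18519 to 21296 on METH arrays and 23385 to 24528 on control arrays. The lower sums were therefore shared in direction with these lists. On this scale the median log2 fold change over all probe sets was -0.13, and 13.6% had all METH arrays below all control arrays. A sum is carried mostly by its brightest genes. The sums thus say little of Acp26Aa and Acp53C14c, whose mean deposited signals on control arrays were 1164 and 737. The testis sums overlapped, at 44134 to 49742 on METH arrays and 43436 to 48918 on control arrays.

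Summed levels of 10 measured of 11 female markers (yolk, vitelline membrane and chorion proteins) were 31.4 to 32.5% of the actin reference on METH arrays, against 21.1 to 28.5% on control arrays, with none called and Cp18 alone at an unadjusted p under 0.05. On the deposited scale these sums overlapped, at 227 to 278 on METH arrays and 208 to 263 on control arrays. Ratios of the 3′ to the 5′ control probe sets, a sign of RNA integrity, were 1.53 to 1.93 on METH arrays and 1.46 to 1.61 on control arrays for actin, and for GAPDH they were 1.92 to 2.08 on METH arrays and 1.73 to 1.96 on control arrays. The part of these measures in the differences of the accessory gland genes was not tested.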

How the data were processed

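RNA from 6 samples of 20 males was extracted, labelled and hybridized to Affymetrix Drosophila arrays by the authors, who quantified the images with GCOS 1.4. The deposited values are linear signal intensities without detection calls, and a scaling to a common target is not given in the sources used here. The members and lists were chosen with earlier results of these data known. Every member is named, and so are at most 3 genes of the other lists, by adjusted p. The genes most like the members were taken by a rule on their correlation. Further genes of the gland, and the 7 ratios, were named after their values were seen.

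Signals were set on the log2 scale, the actin probe set of the array was subtracted, 183 AFFX probe sets were left out, and 18769 were tested with no filter. The annotation pairs 13647 with 1 gene, 402 with several and 4720 with none, and 13544 symbols were updated. Comparisons used R 4.3.3 and limma 3.58.1 with a trend of the spread. The test was also run on simulated data whose independent noise was drawn from the same fit. That simulation has the trend built in, so it cannot check the trend or effects shared by arrays. Intervals are at 95%. Standard deviations are over 3 arrays. Alternatives were 5 other scalings, removal of probe sets dimmer than the 40th percentile, a floor at the 20th, no trend, the methods' t-test (unadjusted p below 0.008 and over 1.5-fold, the cutoff of the study's results section, and, added after the data were seen, p of at most 0.005 and at least 1.5-fold, that of its methods), SAM over 20 arrangements at q under 10% with the median standard error as its constant, probe sets of 1 gene alone, the replicate number as a block, a threshold of 0.1 and leaving out each array. Averaging the probe sets of a gene changes nothing for genes with 1 probe set. Plots used Python 3.11.15 and matplotlib 3.10.9. Sequences were not used here.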

Additional observations from a re-analysis of the deposited data

How the results depend on the processing

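Of the 10 genes 2 were called with the actin reference. The count was 2 with each array left out, 3 with median or 75th percentile centring, 8 on the signals as deposited, 7 after quantile normalization and 4 with the replicate number as a block. It was 0 without the trend, by the methods' t-test at both cutoffs or after adjustment and by SAM. Of the 22 other accessory gland genes 2 were called, and 2 by the methods' t-test at both cutoffs. The count was 9 on the signals as deposited, 5 with 75th percentile centring, 7 after quantile normalization and 8 with the block. It was 6 (4 of them higher) when scaled to those genes themselves, and 0 without the trend, by the adjusted t-test and by SAM. Over all probe sets 236 were called, 158 higher and 78 lower. With the signals as deposited it was 495 (114 higher and 381 lower), with median centring 300 (131 and 169), with 75th percentile centring 358 (147 and 211), after quantile normalization 425 (161 and 264) and scaled to other accessory gland genes 4082 (3991 and 91). It was 1293 with the block, 24 without the trend, 2 by the adjusted t-test, 8 by SAM and 159 to 219 with an array left out.

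The direction of Acp26Ab was turned on the signals as deposited (-0.25), with median centring (-0.068), with 75th percentile centring (-0.10) and after quantile normalization (-0.15). Scaling to the other accessory gland genes gave 0.20 for Acp53C14a, 0.13 for Acp53C14b, 0.10 for Acp53Ea and 0.082 for Acp62F, by construction relative to those genes. The labels number the replicates of both diets. Deviations of same-numbered arrays correlated at 0.02 to 0.06, and those of differently numbered arrays at -0.08 to 0.04. An array correlated best with its same-numbered partner, except that METH replicate 1 correlated best with control replicate 2 (0.04). Correlations this small cannot tell whether same-numbered samples shared more than a number. With the block Acp36DE and Acp29AB were called beside Acp26Aa and Acp53C14c. For the other differences the cause was not tested.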
